A study of Mus musculus with 18 samples.

Results

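DNA methylation was measured at 10 imprinted control regions that carry their methylation from the oocyte: Peg3, Snrpn, Inpp5f, Mest, Peg10, Nap1l5, Igf2r, Impact, Mcts2 and Nnat. Each region was taken as a fixed window on mouse genome build mm9, and every CpG in the window was a member, with the reads of both strands added. On chromosome 7 the windows were 6679000 to 6686000 (Peg3), 67147000 to 67152000 (Snrpn) and 135830500 to 135833500 (Inpp5f). On chromosome 6 they were 30684000 to 30691000 (Mest), 4695500 to 4700000 (Peg10) and 58855500 to 58858500 (Nap1l5). The others were 12933000 to 12937000 on chromosome 17 (Igf2r), 13130000 to 13134000 on chromosome 18 (Impact), and 152511000 to 152514500 (Mcts2) and 157384500 to 157388500 (Nnat) on chromosome 2. Of 1479313 CpGs with at least 5 reads in any sample, 122 lay in these windows, and of 155966 CpGs with at least 5 reads in every sample, 25 did.

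The study compared mouse cell types along reprogramming to pluripotency, with X chromosome reactivation as its subject. Its 18 samples include embryonic stem cells (ESC) of 4 female and 2 male libraries and embryonic fibroblasts (MEF) of 4 female and 2 male libraries. A further 2 libraries are of female induced pluripotent stem cells (iPSC). Reprogramming populations of female cells were split by the surface antigen SSEA1, a marker of mouse pluripotent cells, into SSEA1+ (n = 2) and SSEA1− (n = 2). The labels give cell type and sex for each sample. They give no strain, genotype, treatment, passage, age, day of reprogramming or clone. Whether the samples of a group are separate cultures or animals is also not said, and the p-values below may therefore rest on technical spread alone. Reduced representation bisulfite sequencing was used, an assay that reads CpG-rich restriction fragments after unmethylated cytosines have been converted, so that a methylation level is the percentage of reads that kept the cytosine.

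An imprinted control region is methylated on a single parental chromosome. In the oocyte-methylated class the maternal copy receives the mark, the paternal copy stays free of it, and the mark is kept through the wave of demethylation after fertilization. A cell population that keeps both copies as inherited therefore reads at an intermediate level. In most of these regions the mark lies at the promoter of a gene expressed from the paternal copy. That class includes Peg3, a zinc finger protein, Snrpn, a spliceosome component in the Prader-Willi region, and Mest, an enzyme of the hydrolase fold. It also includes Peg10, a protein derived from a retrotransposon, and Impact, a regulator of translation. Nap1l5, Mcts2 and Nnat are genes that sit inside an intron of a host gene, and the Inpp5f window covers the promoter of a shorter transcript inside Inpp5f, which encodes an inositol phosphatase. The Igf2r window covers the promoter of Airn, a non-coding antisense RNA that silences Igf2r, the receptor that clears the growth factor IGF2, on the paternal copy.

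The promoters of Mcts2 and Nnat are shown because their measured CpGs could be placed in the RefSeq sequence by spacing alone. Both are 300 bases of build GRCm38.p6, read 5′ to 3′ on the plus strand, and base 251 is the annotated start of the transcript. Capitals mark the CpGs measured here.
Mcts2, chr2:152686898-152687197: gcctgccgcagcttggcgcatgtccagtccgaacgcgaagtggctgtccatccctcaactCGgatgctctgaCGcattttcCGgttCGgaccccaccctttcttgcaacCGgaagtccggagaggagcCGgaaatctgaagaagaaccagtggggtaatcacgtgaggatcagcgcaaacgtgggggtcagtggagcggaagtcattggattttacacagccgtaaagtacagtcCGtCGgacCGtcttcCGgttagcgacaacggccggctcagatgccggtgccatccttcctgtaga
Nnat, chr2:157559828-157560127: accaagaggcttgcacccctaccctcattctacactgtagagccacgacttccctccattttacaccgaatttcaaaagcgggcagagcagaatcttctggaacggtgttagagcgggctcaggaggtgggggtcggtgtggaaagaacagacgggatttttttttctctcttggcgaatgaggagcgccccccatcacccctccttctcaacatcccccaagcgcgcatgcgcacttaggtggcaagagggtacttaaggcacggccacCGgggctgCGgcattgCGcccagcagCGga
The Mcts2 promoter holds 25 CpGs, 10 of them measured, and the Nnat promoter holds 17, of which 4 were measured. Of 3202 offsets tried in the Mcts2 window, 1 put all 10 measured CpGs on a CpG of the sequence, and of 3702 offsets in the Nnat window, 1 did so for all 4. The core TGCCGC of the motif bound by ZFP57, a protein that protects imprinted methylation, was searched on both strands. It occurred at bases 4 to 9 of the Mcts2 promoter, where no CpG was measured, and on the minus strand at bases 278 to 283 of the Nnat promoter, where the CpG at base 279 was measured. Among the promoters that could not be placed, Nap1l5 and some of the annotated promoters of Snrpn and Mest held it. Those of Peg3, Usp29, Inpp5f, Igf2r and Airn did not. Of 32851 RefSeq mouse promoters of the same length, 11.6% hold it, and no enrichment at these regions was tested.

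Across the Mcts2 promoter, female ESC were nearly free of methylation and MEF were intermediate. The mean over the promoter CpGs was 0.412, 1.04, 0.658 and 0% in female ESC 1 to 4, and 44.4, 40.5, 49.2 and 49.7% in female MEF 1 to 4. Male ESC stood at 23.8 and 31.2%, iPSC at 9.20 and 23.1%, and male MEF at 31.2 and 50.8%. The CpGs did not all stand at the same level in male ESC. At bases 61, 73 and 82 the mean of the male ESC pair was 6.52, 6.52 and 6.25%, while at bases 236, 239, 244 and 251, at the start site, it was 39.9, 40.5, 45.5 and 45.9%. Male ESC 1 carried both classes (12.5 to 13.0% against 29.7 to 34.2%), and male ESC 2 read 0% of 15 reads at each of the first 3 and 48.5 to 57.6% at the last 4. Neighbouring CpGs lie on the same reads and are not independent. Female MEF were closer to even at these bases, with means of 41.0 to 42.7% at bases 61 to 82 and 47.1 to 52.2% at bases 236 to 251. Male MEF ran the other way, with means of 53.3 to 57.0% at bases 61 to 82 and 29.6 to 32.1% at bases 236 to 251. The iPSC means rose as in male ESC, from 4.55 to 13.9% at the former bases to 14.3 to 32.1% at the latter. At the 4 Nnat promoter CpGs, female ESC 1, 3 and 4 averaged 0, 16.1 and 0%, male ESC 36.7 and 9.38%, iPSC 5.47 and 31.2%, female MEF 1, 3 and 4 averaged 62.5, 52.1 and 49.6%, and male MEF 42.9 and 52.2%. Female ESC and female MEF did not overlap there, male ESC 2 lay within the range of female ESC, and male ESC 1 lay between the groups.

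**Figure D1:**
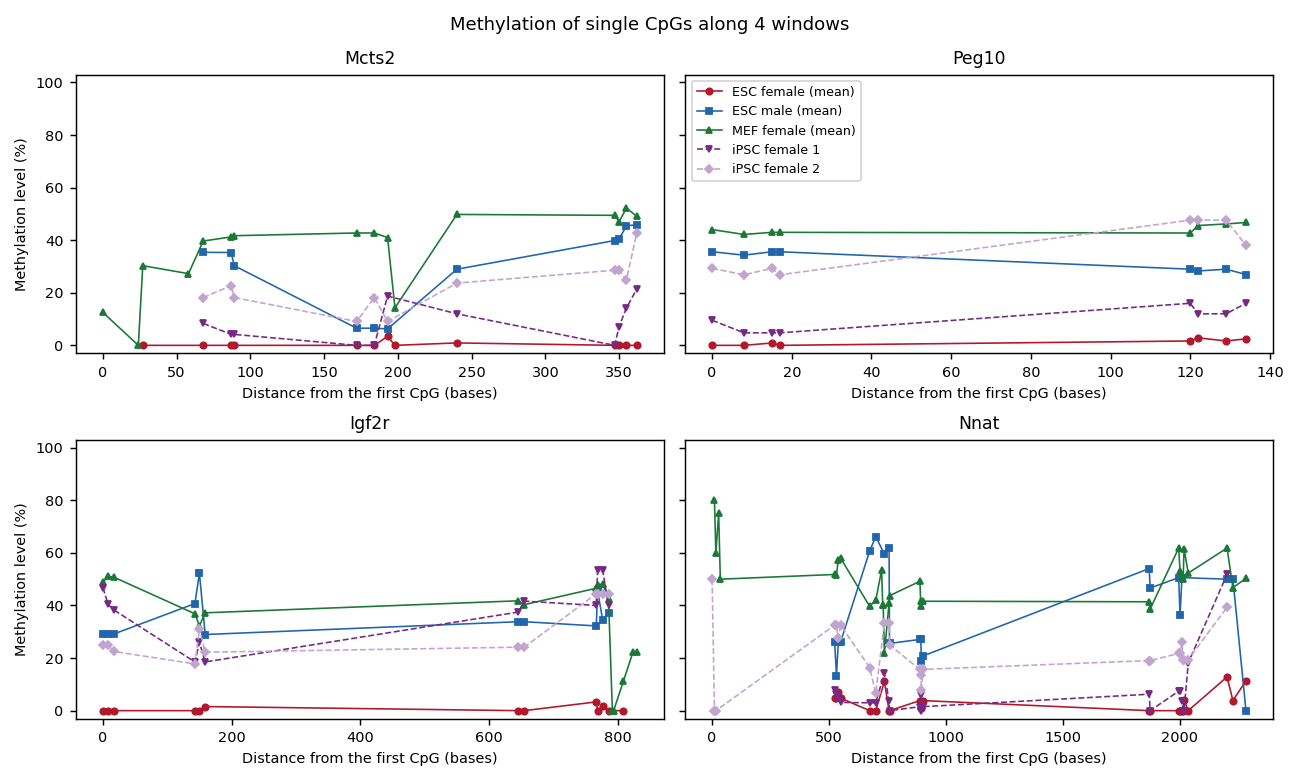
Methylation level (%) of single CpGs against their distance in bases from the first CpG of the Mcts2, Peg10, Igf2r and Nnat windows, as means of female ESC, male ESC and female MEF and as single libraries for iPSC. Female ESC lie at or below 12.8% throughout, female MEF lie mostly above 30%, and the 2 iPSC libraries stand apart at Peg10 but cross at Igf2r.

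Libraries differed in depth and in kind. Total reads over CpGs ranged from 11424460 to 62920167 per sample. Female libraries had 3.45 to 4.30% of their reads on the X and male libraries 2.81 to 2.97%, except that SSEA1+ 2, labelled female, had 2.81%, so it is written below as labelled and results on SSEA1+ are also given without it. The share of CpGs with reads from both strands, a technical property that the labels do not record, put the libraries into type A (all ESC, female MEF 1 and male MEF 2), type B (all SSEA1 libraries, female MEF 2 and male MEF 1) and type C (both iPSC, female MEF 3 and 4). At 1694 autosomal tiles of 1 kb with no methylated read in the male samples, the median level was 3.76 and 3.81% in the iPSC libraries, 0.595 and 0.714% in female MEF 3 and 4, and 0% in every other library. In the male libraries 0% follows from the choice of tiles, and none of these libraries is of type C. The iPSC values are therefore a rough background to read iPSC levels against. Female MEF 3 and 4 were more alike than the other pairs of replicates (a mean chi-square per feature of 1.28, where sampling alone gives about 1, against 1.59 to 4.95) and were kept as 2 samples. The defining markers of the cell types could not be checked, since the files hold methylation only.

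Differences were tested with a quasi-binomial logistic model on summed reads, with p-values of its F test adjusted by the Benjamini-Hochberg method. The model of all 18 samples covered 17106 features, which were 1 kb tiles of the whole genome and the 4 windows with at least 3 CpGs at 5 reads in every sample: Peg10 (8 CpGs), Nap1l5 (4), Impact (4) and Mcts2 (7). The other 6 windows shared 0 or 1 CpG over all samples. They were tested, where at least 3 CpGs allowed it, in a model of only the 2 groups compared, on the CpGs those groups share. A difference was called where its adjusted p was under 0.05 and the group means were at least 20 percentage points apart, and lower and higher are written of such calls. The SE beside a difference is that of the group means, from the spread between samples. A difference that was not called is not shown to be absent. Where samples of groups are said not to overlap, this describes the named windows only. The share of all features without overlap was not counted.

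Female ESC were lower than male ESC at nearly every window that could be tested. In the 18-sample model 4 of 4 windows were lower (27.1% of all features were), and in the model of the ESC samples 7 of 8 were (38.3% of all features). Lower levels in female ESC were therefore not limited to these windows. In such bulk samples a partly methylated region in every cell and a mixture of methylated and unmethylated cells cannot be told apart. The median difference was −28.0 points over the 4 windows and −5.16 over all features, and −28.6 and −15.4 in the model of the ESC samples. Of the CpGs with 5 reads in the windows, 96.6 to 99.0% stood under 20% in each female ESC library, against 10 and 38.1% in the male ones. All ESC libraries were of type A, and the 8 differences of the second model ran from −39.1 to −18.9 points.

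Among the genes inside host introns, Nap1l5 had the widest gap of the windows tested in the 18-sample model. Its level was 3.41, 3.65, 1.67 and 2.78% in the female ESC libraries and 57.4 and 54.0% in the male ones, a difference of −52.8 points (SE 1.72, adjusted p = 1.97e-06). Over all 10 of its CpGs the difference was −39.1 points. Mcts2 stood at 0.529, 1.19, 0.752 and 0% in female and 25.9 and 16.7% in male ESC, lower by 20.7 points (SE 4.62, adjusted p = 8.99e-06), and the difference was under the size for a call without male ESC 1 (−16.1 points) and at a minimum of 10 reads (−15.9). On the 11 CpGs that the ESC samples share, it was −28.8 points. Nnat stood at 3.66, 1.59, 3.40 and 3.57% in female and 35.2 and 27.8% in male ESC over 7 CpGs, lower by 28.5 points (SE 3.75, adjusted p = 0.00435 in the model of the ESC samples). Inpp5f stood at 1, 0, 1.79 and 5.46% in female and 30.1 and 11.8% in male ESC, and its difference of −18.9 points (adjusted p = 0.0101) was under the size for a call, which it passed without female ESC 4 (−20.0) or male ESC 2 (−28.0). The female and male libraries did not overlap at any of the 4.

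Promoters of paternally expressed genes showed the same gap. Peg10 stood at 0, 1.04, 0.403 and 3.33% in female and 35.3 and 28.3% in male ESC, lower by 30.6 points (SE 3.60, adjusted p = 8.68e-05). Impact stood at 0, 0, 1.5 and 0% in female and 24.1 and 27.5% in male ESC, lower by 25.4 points (SE 1.77, adjusted p = 6.42e-05). With 1 CpG per run of CpGs on the same reads, this difference was −19.6 points, under the size for a call. For female ESC 2, which read 0 at Impact, a count of 0 among 63 reads at 1 CpG per run allows up to 4.76% (3 reads), and intervals and limits of this kind cover counting error only. Snrpn was 2.38, 2.38, 5.37 and 6.02% in female and 29.4 and 29.9% in male ESC over 3 CpGs, lower by 25.6 points (SE 1.01, adjusted p = 0.0110 in the model of the ESC samples). That call was lost without male ESC 1 (adjusted p = 0.0926), and the Impact difference in the same model was then −17.5 points, under the size for a call. At a minimum of 3 reads both were under that size in this model (−19.5 points at Snrpn, −17.0 at Impact). Peg3 had 4 CpGs with few reads and no test, with 0, 10, 0 and 4.17% in female ESC and 57.1 and 0% in male ESC over each library's own CpGs. The male ESC pair there read different CpGs.

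Mest had a high level in male ESC. Over the 2 CpGs read in all ESC libraries it stood at 13.3, 2.50, 4.76 and 0% in female and 76.7 and 80% in male ESC, too few CpGs for the test. Over each library's own CpGs it stood at 81.4 and 90% in the male ESC, and the highest male ESC value at another window on this measure was 57.1%, at Peg3 over 2 CpGs. At the pair of Mest CpGs at 30689323 and 30689333 on chromosome 6, male ESC 1 and 2 were methylated on all of 10 and 5 reads, and female ESC 1, 2 and 3 read 0 to 4.76% on 20 to 27 reads.

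In the Igf2r window, female ESC had 1.67, 0, 0.521 and 0% over 12 CpGs and male ESC had 41.7 and 29.4%. Female ESC were lower by 35.0 points (SE 6.17, adjusted p = 0.00406 in the model of the ESC samples). The RefSeq promoter of Airn could not be placed on these CpGs. Every one of the 12 CpGs had a mean of at most 3.33% in female ESC and of 29.0 to 52.3% in male ESC.

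**Figure D2:**
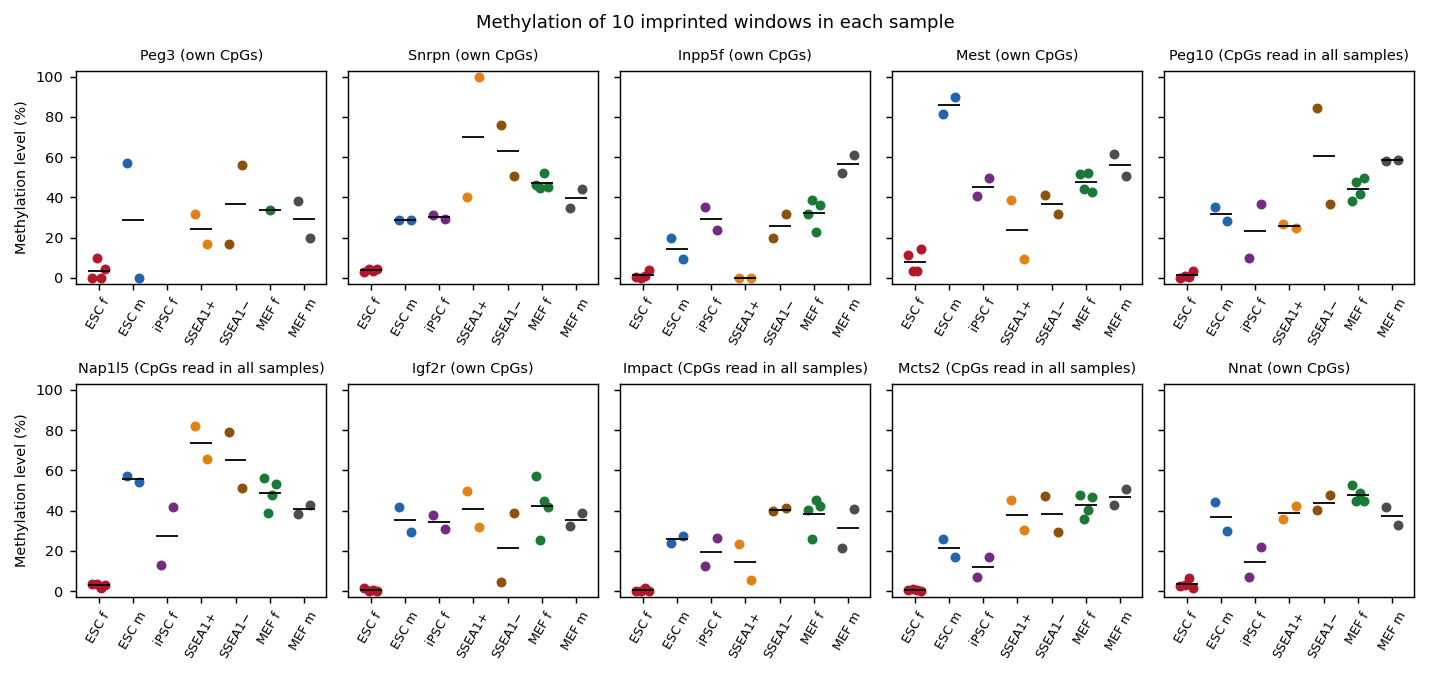
Methylation level (%) of each window in each sample (points) with group means (bars), over CpGs read in all samples for Peg10, Nap1l5, Impact and Mcts2 and over each sample's own CpGs for the other 6. The 4 female ESC libraries lie below all other samples in every panel but Peg3, Inpp5f and Mest, where a male ESC or SSEA1+ library reads as low, and the male ESC libraries reach 81.4 and 90% at Mest.

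In MEF, no window was called between the sexes. In the 18-sample model 0 of 4 windows were called, with 0 at an unadjusted p under 0.05, and limma, run on log2 ratios of the methylated to the unmethylated count, called 0 (1% of all features were called in either direction by the main model). In the model of the MEF samples 0 of 6 were called by either tool, with 1 window at an unadjusted p under 0.05 (0.286% of all features were called). That window was Peg10, which in female MEF stood at 38.0, 47.7, 41.4 and 49.5% and in the male libraries at 58.2 and 58.7%. The groups did not overlap, but the difference of −14.3 points had an adjusted p of 0.210 in the model of the MEF samples and 0.329 in the 18-sample model. Within a library type, with 1 sample on each side, it was −20.7 points for type A and −10.5 for type B. The 18-sample differences at Nap1l5, Impact and Mcts2 were 8.20, 7.26 and −4.16 points, and the samples overlapped at each. All 4 female MEF libraries held 83.7 to 95.3% of their window CpGs between 20 and 80%, and the male MEF held 65.5 and 85.1%.

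The sex difference itself differed between ESC and MEF. Its p-values test the interaction on the log-odds scale of the logistic model, while its size is given in points of the mean level. The p-value is therefore not a test of the difference in points. At Nap1l5 female minus male was −52.8 points in ESC and 8.20 in MEF, an interaction of −61.0 points (adjusted p = 9.16e-05). At Impact it was −25.4 and 7.26 points, an interaction of −32.7 (adjusted p = 0.000416). These 2 of 4 windows were called, against 14.9% of all features in that direction. At Peg10 (−16.3 points, adjusted p = 0.00684) and Mcts2 (−16.5 points, adjusted p = 0.000497) the interaction passed the p threshold but not the size. Mcts2 was called without male ESC 2 (−21.2) or without male MEF 2 (−20.6).

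Female ESC were far below female MEF. In the 18-sample model 4 of 4 windows were lower (39% of all features were), and in the model of the female ESC and MEF samples 5 of 5 were (47.6% of all features). The differences were −43.0 points at Peg10 (SE 2.80, adjusted p = 2.08e-06), −46.0 at Nap1l5 (SE 3.83, adjusted p = 7.02e-08), −38.0 at Impact (SE 4.31, adjusted p = 8.69e-08) and −42.1 at Mcts2 (SE 2.87, adjusted p = 7.24e-09). Igf2r, in the model of these samples, stood at 0 to 1.67% in female ESC and at 57.4, 31.2, 44.6 and 41.6% in female MEF, lower by 43.1 points (SE 5.41, adjusted p = 3.97e-07). The samples did not overlap at any of the 5, and within type A, against female MEF 1 alone, the differences at the 5 windows were −35.4 to −56.8 points. Over each library's own CpGs, the windows without a test showed the same order. Snrpn stood at 2.87 to 4.51% in female ESC and 44.6 to 52.0% in female MEF, Inpp5f at 0 to 3.64% and 22.9 to 38.5%, Mest at 3.20 to 14.4% and 42.6 to 52.3%, and Nnat at 1.39 to 6.72% and 44.6 to 52.7%.

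The difference between male ESC and male MEF varied by window. In the 18-sample model 2 of 4 windows were lower (21.6% of all features were), which were Peg10 by 26.7 points (SE 3.53, adjusted p = 0.0233) and Mcts2 by 25.5 points (SE 6.11, adjusted p = 0.000363). The Peg10 call was lost without male ESC 1 (adjusted p = 0.0824), male ESC 2 (0.0534) or male MEF 1 (0.227), at a minimum of 10 reads (0.0521), and with library type as a term (−20.4 points, 0.233), and limma did not call it (0.223). The Mcts2 difference was −11.9 points over each library's own CpGs and was not called there (adjusted p = 0.141). Nap1l5 (15.0 points, adjusted p = 0.0795) and Impact (−5.34 points, adjusted p = 0.982) were not called. In the model of the male samples 0 of 9 windows were called, with 2 at an unadjusted p under 0.05 and 0 by limma, against 5.91% of all features called in either direction. The 2 were Peg10 and Mest.

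At Mest the difference had the opposite sign from Peg10 and Mcts2. Over 4 CpGs it stood at 88.3 and 90% in male ESC and 52.1 and 49.6% in male MEF, a difference of 38.3 points (SE 1.52) with an adjusted p of 0.0952 in the model of the male samples, so it was not called. Against male MEF 2 alone, the one of type A, it was 39.6 points, while 7 of the 9 windows had negative differences. The largest difference toward lower levels in male ESC in that model was −26.7 points at Peg10. Nnat (0.752 points over 14 CpGs), Igf2r (−1.87 points) and Nap1l5 (3.61 points over 10 CpGs) had overlapping samples.

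**Figure D3:**
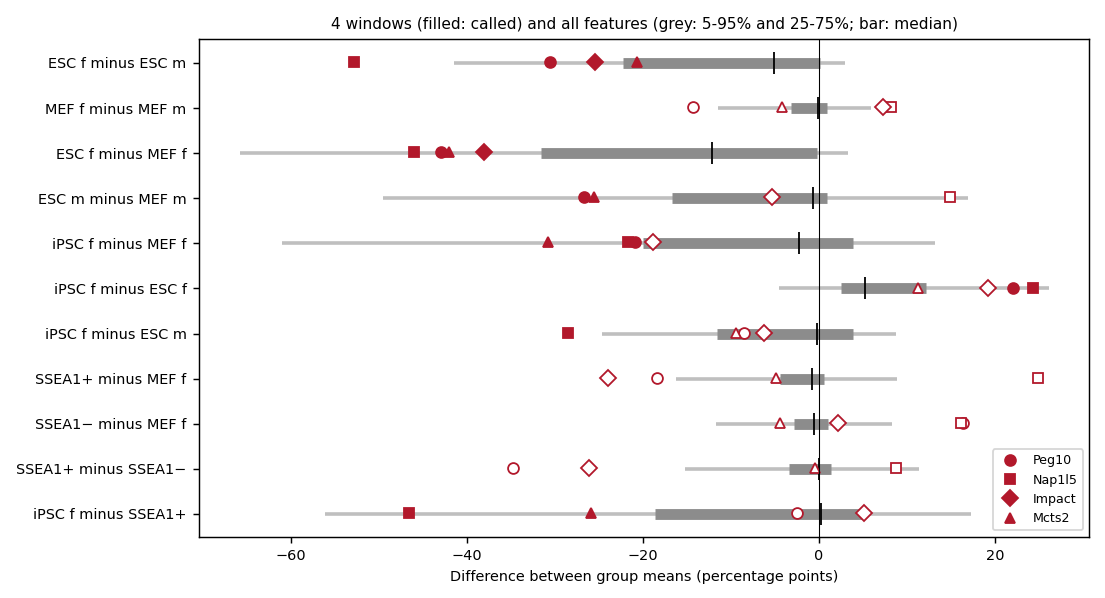
Difference between group means in percentage points for the 4 windows of the 18-sample model in each comparison (symbols, filled where called), over the middle 50% and 90% of all features (grey bars) and their median (tick). The 4 windows are called lower in female ESC against male ESC and against female MEF, and no symbol is filled between the sexes of MEF or in the comparisons of SSEA1 populations with MEF or with each other.

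The mean of the iPSC libraries stood between those of female ESC and female MEF at most windows. Single iPSC libraries lay within the female MEF range at some of them. Over each library's own CpGs, iPSC 1 and 2 had 35.1 and 23.5% at Inpp5f, against 22.9 to 38.5% in female MEF. At Mest they had 40.7 and 49.4%, against 42.6 to 52.3%. Neither window had enough shared CpGs for a test against female MEF. Against female MEF, 3 of 4 windows were lower in the 18-sample model (24.6% of all features were) and 3 of 7 in the model of the iPSC and female MEF samples (25.5%). Mcts2 was 6.77 and 17% in iPSC and 47.8, 35.6, 40.5 and 46.8% in female MEF, lower by 30.8 points (SE 5.87, adjusted p = 7.58e-05). Peg10 was 9.98 and 36.6% in iPSC and 38.0 to 49.5% in MEF, lower by 20.9 points (SE 13.6, adjusted p = 0.0229). Nap1l5 was 12.8 and 41.6% against 38.8 to 56.2%, lower by 21.7 points (SE 14.9, adjusted p = 0.00807), with overlapping samples. Both of the latter calls rested on iPSC 1, without which the differences were −7.53 points (adjusted p = 0.323) and −7.34 points (adjusted p = 0.258). They were also under the size for a call without female MEF 1 at Nap1l5 (−19.3) and without female MEF 2 (−19.7) or 4 (−19.1) at Peg10, and with 1 CpG per run (−17.8 at Peg10, −16.3 at Nap1l5). Nap1l5 was −11.3 points at a minimum of 3 reads and −17.1 over each library's own CpGs, with no call. Limma did not call Peg10 (adjusted p = 0.0691). Impact was 12.5 and 26.6% against 26.0 to 45.4%, and its difference of −18.9 points (adjusted p = 0.00163) was under the size for a call, which it reached without iPSC 2 (−25.9) or female MEF 2 (−23.0), with 1 CpG per run (−20.9) and with library type as a term (−20.1).

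In the model of the iPSC and female MEF samples, differences of −13.1 points at Snrpn (adjusted p = 0.00370), −9.34 at Igf2r (adjusted p = 0.0148) and −17.2 at Nnat over 3 CpGs (adjusted p = 0.000236) passed the p threshold but not the size. Samples of the groups overlapped at Igf2r. Nnat was called at a minimum of 3 reads (−32.5 points) and with 1 CpG per run (−26.7). Within type C, which holds both iPSC and female MEF 3 and 4, all 7 windows with at least 3 shared CpGs had a lower mean in iPSC. The share of all features with a lower mean was not counted within this type. Over all features of the model of the iPSC and female MEF samples, the median difference was −8.04 points, so lower iPSC levels were not limited to these windows. The gap at the 7 windows within type C ran from 8.75 points at Igf2r to 31.8 at Mcts2, with a median of −22.2 points. Inpp5f and Mest were not among these windows.

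Against female ESC, iPSC were higher at 2 of 4 windows in the 18-sample model (9.67% of all features were) and at 5 of 8 in the model of the iPSC and female ESC samples (16%). iPSC and ESC share no library type, so no value within a type could be had, and the iPSC background at unmethylated tiles was given above. Igf2r was the widest, at 37.9 and 30.8% in iPSC and 0 to 1.67% in female ESC, higher by 33.8 points (SE 3.55, adjusted p = 0.000754). Inpp5f was 35.1 and 27.4% against 0 to 3.64% over 6 CpGs, higher by 29.9 points (SE 3.90, adjusted p = 0.00166), but with 1 CpG per run by 19 points, under the size for a call. Snrpn was 30.8 and 26.0% against 1.79 to 4.51% over 4 CpGs, higher by 25.4 points (SE 2.50, adjusted p = 0.00223). In this model the calls were lost without either iPSC library, which left 1 sample in the group, while the differences kept their sign. Without iPSC 1 they were 30.3 points at Igf2r, 26.0 at Inpp5f, 23.0 at Snrpn, 35.4 at Peg10 and 38.7 at Nap1l5. Without iPSC 2 they were 37.3, 33.7, 27.8, 8.78 and 9.95 points in the same order. Peg10 was higher by 22.1 points (adjusted p = 0.00272) and Nap1l5 by 24.3 (adjusted p = 0.000763) in the 18-sample model. These calls rested on iPSC 2, without which the differences were 8.78 points (adjusted p = 0.118) and 9.95 points. With library type as a term, Peg10 differed by 20.6 points and was not called (adjusted p = 0.124). At Impact (19.2 points, adjusted p = 0.000567) and Mcts2 (11.3 points, adjusted p = 0.00136) the p threshold was passed but not the size, which Impact reached without iPSC 1 (26.2) and with 1 CpG per run (20.4). Nnat differed by 9.74 points (adjusted p = 0.103 in the model of the 2 groups). Samples of the groups did not overlap at any of the 8 windows, with no share of all features to set beside this.

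Against male ESC, iPSC were lower at 1 of 4 windows, Nap1l5 (7.66% of all features were lower in the 18-sample model). The difference was −28.5 points (SE 14.5, adjusted p = 0.0112), and it was lost without iPSC 1 (−14.1 points, adjusted p = 0.158) or male ESC 1 (adjusted p = 0.0788), with library type as a term (adjusted p = 0.209), over each library's own CpGs (−19.1 points, adjusted p = 0.248) and at a minimum of 3 reads (−13.4 points, adjusted p = 0.240). In the model of the iPSC and male ESC samples 0 of 8 windows were called, with 1 at an unadjusted p under 0.05 and 0 by limma (10.1% of all features were called in either direction). Without male ESC 2, Nap1l5 (−30.1 points) and Nnat (−32.9 points) were called there. At Snrpn the levels were 32.6 and 30.9% in iPSC and 29.0 and 29.4% in male ESC, a difference of 2.57 points (SE 0.896, adjusted p = 0.453).

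The 2 iPSC libraries stood far apart at some windows and close together at others. Over CpGs read in both, iPSC 1 stood below iPSC 2 at Peg10 (9.98 and 36.6%), Nap1l5 (12.8 and 41.6%), Impact (11.9 and 24.6%), Mcts2 (8.21 and 22.2%), Nnat (6.80 and 22.6%) and Mest (40.7 and 49.4%, 2 CpGs). It stood above iPSC 2 at Snrpn (31.1 and 29.3%), Inpp5f (35.1 and 27.4%) and Igf2r (37.9 and 30.8%). The order at Inpp5f depended on CpGs with few reads: at 2 of its 6 CpGs iPSC 1 had 60% of 5 reads, and with 1 CpG per run 25 of 123 reads were methylated in iPSC 1 and 30 of 141 in iPSC 2, with overlapping exact intervals (13.6 to 28.5% and 14.8 to 29.0%). The gap had the same sign at 8 of 8 CpGs of Peg10, 4 of 4 of Nap1l5, 7 of 7 of Impact, 10 of 11 of Mcts2 and 21 of 22 of Nnat, though neighbouring CpGs share reads. With 1 CpG counted per run of CpGs on the same reads, the exact Clopper-Pearson 95% intervals were 6.15 to 13.5% in iPSC 1 and 20.2 to 30.8% in iPSC 2 at Nnat, which do not overlap. At Peg10 they were 4.94 to 26.3% and 23.7 to 48.7%, at Nap1l5 7.15 to 32.1% and 29.7 to 56.8%, and at Mcts2 2.09 to 14.2% and 13.7 to 29.7%, which overlap slightly. At Igf2r they were 28.3 to 46.8% and 17.9 to 33.3%. At Impact they were 8.79 to 27.0% (12 of 73 reads) and 16.2 to 34.4% (23 of 94), and each covers the other library's value. Over all 17106 features the median of iPSC 2 minus iPSC 1 was −0.271 points, the middle 90% ran from −13.2 to 11.1, and 6.03% lay above 10 points. With 1 library on each side this is a comparison of the libraries.

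**Figure D4:**
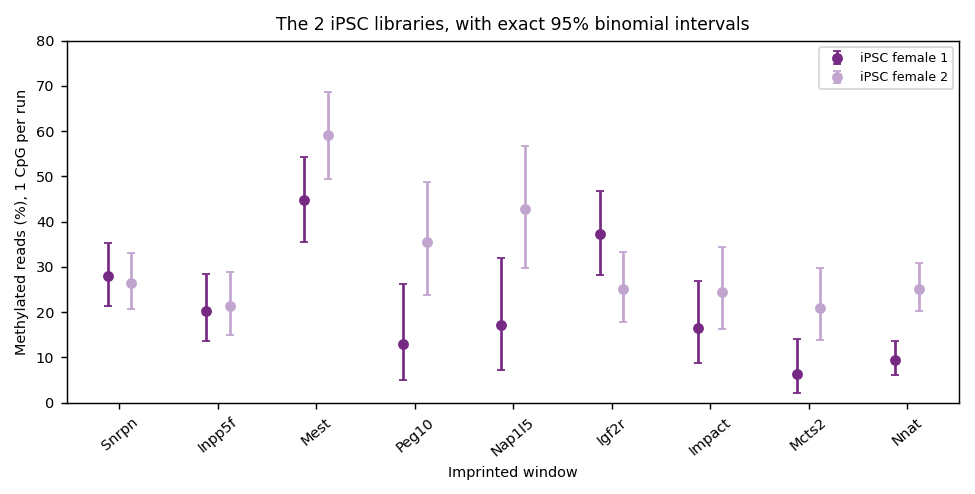
Percentage of methylated reads in the 2 iPSC libraries at 9 windows, counting 1 CpG per run of CpGs on the same reads, with exact 95% binomial intervals. The intervals of the libraries are apart at Nnat, overlap slightly at Peg10, Nap1l5 and Mcts2, and cover each other's values at Snrpn, Inpp5f and Impact.

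In the SSEA1 populations no window was called against female MEF, and the median over windows was 37.9 and 33.5% in SSEA1+ 1 and 2 and 37.0 and 39.9% in SSEA1− 1 and 2. Too few shared CpGs left Peg3, Snrpn, Inpp5f, Mest and Igf2r untested for SSEA1+. Over own CpGs, Inpp5f read 0% in both SSEA1+ libraries (0 of 12 and 0 of 11 reads at 1 CpG per run), against 22.9 to 38.5% in female MEF. Mest stood at 38.6 and 9.09% against 42.6 to 52.3%, and Igf2r at 31.9 to 49.6% against 25.3 to 57.4%. Snrpn was 40.2% in SSEA1+ 1 and 100%, on 1 CpG, in SSEA1+ 2, against 44.6 to 52.0%. For SSEA1+ 0 of 4 windows were called in the 18-sample model, with 2 at an unadjusted p under 0.05 and 0 by limma (2.08% of all features were called in either direction). The model of the SSEA1+ and MEF samples called 0 of 5, with 2 at an unadjusted p under 0.05 and 0 by limma (0.305% of all features). Nap1l5 stood at 82.1 and 65.5% in SSEA1+ 1 and 2 and at 38.8 to 56.2% in female MEF, a difference of 24.9 points (adjusted p = 0.0554) that was called in fits without an iPSC library (adjusted p = 0.0245) or without an SSEA1− library (0.0471), and with 1 CpG per run (36.6 points, 0.0268). Over 9 of its CpGs the values were 50.4 and 38.4%, and the difference was 4.70 points. Impact stood at 23.2 and 5.56% in SSEA1+ and 26.0 to 45.4% in MEF (−24.0 points, adjusted p = 0.171), but over each library's own CpGs at 37.3 and 48.0% against 32.3 to 43.2%, the opposite direction. Peg10 stood at 26.9 and 24.7% against 38.0 to 49.5% (−18.4 points, adjusted p = 0.288). Without SSEA1+ 2, the library with the low X share, the differences were 33.2 points at Nap1l5 (adjusted p = 0.0548), −15.2 at Impact (0.411), −17.3 at Peg10 (0.472) and 2.76 at Mcts2 (0.633), and 0 of 4 were called.

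SSEA1− cells also had 0 of 4 windows called against female MEF, with 0 at an unadjusted p under 0.05 and 0 by limma (1.15% of all features were called in either direction). The model of the SSEA1− and MEF samples called 0 of 6, with 2 at an unadjusted p under 0.05 and 0 by limma (0.249% of all features). The SSEA1− libraries stood far apart at Peg10, at 84.3 and 36.9%, and without SSEA1− 2 the difference from MEF at Peg10 was 40.1 points (adjusted p = 0.0319). They stood apart at Igf2r too, at 4.62 and 38.6% over their own CpGs. Between SSEA1+ and SSEA1−, 0 of 4 windows were called in the 18-sample model, with 3 at an unadjusted p under 0.05 and 0 by limma (1.28% of all features). The model of these 4 samples called 0 of 8, with 0 at an unadjusted p under 0.05 and 0 by limma, and it called no other feature (0% of 64825). Peg10, at 26.9 and 24.7% in SSEA1+, was called lower than in SSEA1− without SSEA1− 2 (−58.5 points, adjusted p = 0.0109). Without SSEA1+ 2 no window was called in either model of this comparison.

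From SSEA1+ cells to iPSC, 2 of 4 windows were lower in the 18-sample model (22% of all features were). They were Nap1l5 by 46.6 points (SE 16.6, adjusted p = 0.000298) and Mcts2 by 26.0 points (SE 9.16, adjusted p = 0.00475), whose levels were 45.5 and 30.3% in SSEA1+. Without SSEA1+ 2 they were lower by 54.9 and 33.6 points, and the Mcts2 call was lost without iPSC 1 (adjusted p = 0.0548) or SSEA1+ 1 (adjusted p = 0.0571). No library type held both groups. In the fit that includes type, the Mcts2 call was lost (−25.9 points, adjusted p = 0.0502), and over each library's own CpGs the Nap1l5 call was lost (−22.9 points, adjusted p = 0.0631), as it was at a minimum of 3 reads (−16.5 points, adjusted p = 0.0639). The model of these samples called 1 of 5 windows, Mcts2 (18.6% of all features were lower), and 2 without SSEA1+ 2. Impact reversed with the CpGs used: iPSC minus SSEA1+ was 5.16 points (adjusted p = 0.912) over the 4 CpGs read in all samples and −24.4 points (adjusted p = 0.0444) over each sample's own CpGs, and it was −3.68 points (adjusted p = 0.593) over the 4 CpGs without SSEA1+ 2.

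Levels also varied between the windows of a sample, given here over each library's own CpGs for windows with at least 3 of them. In female ESC the median over windows was 1.04 to 2.36% and the highest window 4.40 to 14.4%, which was Mest in female ESC 1 and 4, Snrpn in 2 and Nnat in 3. In female MEF the median was 37.0 to 45.3%, from a lowest of 22.9% (Inpp5f in female MEF 3) to a highest of 60.2% (Nap1l5 in female MEF 4). Male ESC ran from 19.6% at Inpp5f to 81.4% at Mest in male ESC 1 and from 9.44 to 90% at the same windows in male ESC 2, with medians of 35.3 and 29.4% over 9 windows. In iPSC the medians were 12.4 and 26.9%, the lowest window was Nnat in both, at 6.80 and 21.9%, and the highest was Igf2r in iPSC 1 at 37.9% and Peg10 in iPSC 2 at 36.6%. The CpGs of iPSC 1 stood under 20% in 65.4% of cases, against 28.7% in iPSC 2, and neither library had a CpG above 80%. SSEA1− libraries had 10.8 and 9.57% of their CpGs above 80%, SSEA1+ libraries 5.21 and 7.81%, and female MEF 1.09 to 1.16%.

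Over the groups, female ESC had the lowest mean at each of the 4 windows read in all samples. At Peg10 the order above them was iPSC (23.3% ± 18.9), SSEA1+ (25.8 ± 1.55), male ESC (31.8 ± 4.98), female MEF (44.2 ± 5.40), male MEF (58.4 ± 0.301) and SSEA1− (60.6 ± 33.5), as means ± SD with n = 2 but for female MEF (n = 4). The distance from iPSC to SSEA1+ and that from male MEF to SSEA1− are under the SD of the wider group, so these neighbours cannot be ordered. Setting a step against an SD is not a test, and a step above it, at this or another window, is not thereby shown. Female and male MEF, for example, were not called apart at Peg10 (adjusted p = 0.329, F test of the 18-sample model). At Mcts2 it was iPSC (11.9 ± 7.25), male ESC (21.3 ± 6.52), SSEA1+ (37.9 ± 10.7), SSEA1− (38.3 ± 12.3), female MEF (42.7 ± 5.72) and male MEF (46.9 ± 5.67), and of the steps above iPSC only those to male ESC and from male ESC to SSEA1+ exceed the larger SD of the pair. At Impact it was SSEA1+ (14.4 ± 12.5), iPSC (19.6 ± 9.95), male ESC (25.8 ± 2.45), male MEF (31.2 ± 13.5), female MEF (38.4 ± 8.60) and SSEA1− (40.5 ± 1.23), with each of these steps under the larger SD of the pair. This order depended on the 4 CpGs: over each library's own CpGs SSEA1+ had the highest mean at Impact (42.7 ± 7.60). At Nap1l5 it was iPSC (27.2 ± 20.3), male MEF (40.7 ± 3.09), female MEF (48.9 ± 7.61), male ESC (55.7 ± 2.36), SSEA1− (65.0 ± 19.6) and SSEA1+ (73.8 ± 11.7), and of these steps only that from male to female MEF exceeds the larger SD. Over own CpGs the 5 groups above iPSC lay closer together at Nap1l5, from 38.5% in male MEF to 46.0% in SSEA1+.

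**Figure D5:**
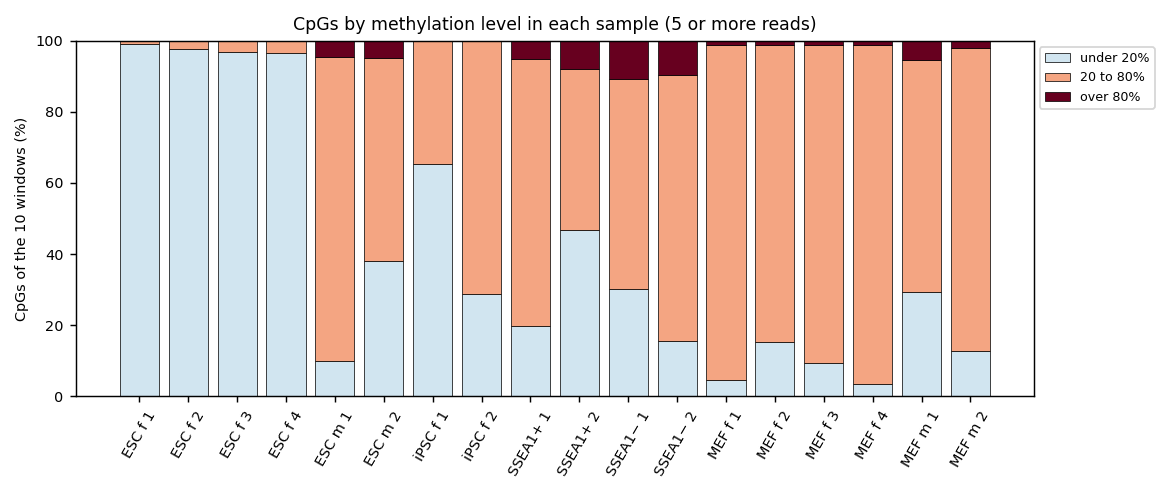
Percentage of the window CpGs with at least 5 reads that stood under 20%, from 20 to 80% and over 80% in each of the 18 samples. Female ESC bars are almost wholly under 20%, the 4 female MEF bars are mostly from 20 to 80%, and the 2 iPSC bars differ from each other.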

How the data were processed

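Methylation in the 18 samples was measured by reduced representation bisulfite sequencing, per the labels' protocols. For each CpG and strand, the deposited tables hold the count of methylated reads and that of total reads, used unchanged, and a score from the authors that was not used. The genome build is mm9, per the submitters' processing notes. Which aligner and caller were used is not given in the sources used here, and misplaced reads or strain differences would enter the counts.

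Strands were added, and CpGs were used at 5 or more reads. A level is the mean over CpGs with equal weight. Quasi-binomial models were fitted to reads summed per feature (windows, and 1 kb tiles outside them, with at least 3 CpGs). The dispersion was kept at or above 1 and moderated across features by the method of limma's squeezeVar, p-values came from F tests with Benjamini-Hochberg adjustment over all features, and the scripts were tested on simulated data. The model of only 2 groups, and the use of 1 CpG per run of CpGs at most 40 bases apart, were added after seeing that only 4 windows had enough shared CpGs. The windows, lists and library types (under 8%, 8 to 14% and over 14% of CpGs with both strands for C, A and B) were chosen with earlier results of these data known. All 10 windows are named. Alternatives were a minimum of 10 or 3 reads, each sample's own CpGs, reads capped at 50 per CpG, limma, a replicate block, library type as a term, the 1 kb tile with the most CpGs, female MEF 3 and 4 as 1 sample, 1 CpG per run, and each sample left out.

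Median reads per CpG and sample ran from 9 (Peg3) to 23.5 (Mcts2), and intervals cover counting error only. RefSeq promoters (GRCm38.p6) of 8 of the 10 named genes, and of Airn and Usp29, were matched by symbol and slid over the mm9 CpG positions, with no conversion of coordinates. Exons and introns were not assigned. Software was Python 3.11.15 with numpy 2.4.6, scipy 1.17.1 and pandas 2.3.3, and limma 3.58.1 under R 4.3.3.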

Additional observations from a re-analysis of the deposited data

Results flagged for a closer look

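Among the 4 female ESC libraries, female ESC 3 stood apart at Impact, with 1.5% against 0% in the other 3, which is the distance that a Dixon test at the 95% level marks. With 3 values tied at 0, any value above 0 would be so marked, and 3 reads in the other libraries would correspond to 4 to 4.76% (1 CpG per run), so the mark is not evidence of a difference. It was the only one of 19 groups of 4 samples so marked, and chance marks about 1 in 20. The sex difference differed between ESC and MEF at Nap1l5 by −61.0 points (adjusted p = 9.16e-05, quasi-binomial interaction test) and at Impact by −32.7 points (adjusted p = 0.000416). In both, each female ESC library was below each male ESC library, while the MEF samples overlapped.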

How the results depend on the processing

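Counts of windows called are given in the order of the report's comparisons. The share of all features called was computed for the main fits only. The counts in this section therefore show how calls moved, and not how the windows compare with other features. At a minimum of 10 reads 2 windows could be tested in the 18-sample model, and the counts were 1 for female against male ESC, 2 for female ESC against MEF, 1 for male ESC against MEF, 1 for iPSC against female ESC, 0 for iPSC against male ESC, 1 for iPSC against SSEA1+ and 0 for the interaction. In the models of 2 groups they were then 4 of 4 tested for ESC sexes, 3 of 3 for female ESC against MEF, 3 of 5 for iPSC against female ESC and 0 of 3 for iPSC against SSEA1+. Fewer windows tested lowered several of these. At a minimum of 3 reads, 0 windows were called for iPSC against male ESC, 1 for iPSC against SSEA1+, and 2 of 8 in its model of 2 groups.

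Over each sample's own CpGs, male ESC against MEF had 1 of 6 windows called and the interaction 5 of 6, and Impact in iPSC against SSEA1+ reversed to −24.4 points (adjusted p = 0.0444). With limma, male ESC against MEF had 1 window called and iPSC against SSEA1+ had 2 in the model of 2 groups. With library type as a term the counts were 1 for male ESC against MEF, 1 for iPSC against female ESC, 0 for iPSC against male ESC and 1 for iPSC against SSEA1+. With 1 CpG per run, SSEA1+ against MEF had 1 window called. In the models of 2 groups, female ESC against MEF then had 8 of 8 and iPSC against SSEA1+ 0 of 5. The causes were not tested. Capping reads, the 1 kb tile with the most CpGs, and female MEF 3 and 4 as 1 sample left every count within 1.5 times that reported.

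Samples of the same replicate number did not deviate together (correlations of −0.0744 to 0.0263 over 44 pairs, against −0.0606 to 0.0744 over 92 other pairs, and 8 of 18 samples correlated best with their own number). With the replicate block, male ESC against MEF had 1 window called and iPSC against MEF 1, and the other counts of the 18-sample model did not change.

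Leaving out each sample in turn, the 18-sample counts ran from 3 to 4 (ESC sexes), 1 to 2 (male ESC against MEF), 1 to 4 (iPSC against MEF), 0 to 3 (iPSC against female ESC), 0 to 1 (iPSC against male ESC), 0 to 1 (each of SSEA1+ and SSEA1− against MEF, and SSEA1+ against SSEA1−), 1 to 2 (iPSC against SSEA1+) and 2 to 3 (the interaction), and stayed at 4 for female ESC against MEF and 0 for MEF sexes. In the models of 2 groups they ran from 5 to 8 (ESC sexes), 1 to 4 (iPSC against MEF), 0 to 5 (iPSC against female ESC), 0 to 2 (iPSC against male ESC) and 0 to 2 (iPSC against SSEA1+), and the others did not change. Of the single windows' values, 2060 counted as unchanged. For tested values this means the same side of the threshold and, where called, the same direction. For untested ones it means a move within the spread between replicates. Of the others, 67 lost and 32 gained the call, 1 reversed, and 25 untested values moved by more than that spread. Peg3, Inpp5f, Mest and Igf2r had no CpG, and Snrpn and Nnat 1, with 5 reads in every sample, which kept them out of the 18-sample model.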
